A study of Mus musculus with 6 samples.

Results

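The splicing factor genes analysed here encode the SR proteins, the hnRNP proteins, the subunits of SF3A and SF3B, the U2AF proteins and the proteins of the Sm core and of the U1 and U2 particles. They were taken by name and annotation: every protein-coding row of both deposited tables whose symbol begins with Srsf, Hnrnp, Sf3a, Sf3b, U2af or Snrp, without Snrpn. The rule found 54 gene IDs with 53 symbols, of 14667 genes in all, of which 14082 stand in both tables. By role these were 10 SR genes, 20 hnRNP genes, 9 genes of SF3A and SF3B, 7 Sm core genes, 4 genes of U1- or U2-specific proteins (Snrpa, Snrpa1, Snrpb2 and Snrpc) and 4 U2AF gene IDs. The symbol U2af1l4 stood on 2 IDs whose exons overlap, so reads could not be assigned to one of them with certainty. The processed pseudogene Snrpert matched the prefix but not the gene type and is no member.

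Splicing removes introns in the spliceosome, which is built from small nuclear ribonucleoproteins (snRNPs) on each pre-mRNA. U1 binds the 5′ splice site, U2AF binds the polypyrimidine tract and the AG of the 3′ splice site, and the SF3A and SF3B complexes fix U2 on the branch point, while a ring of Sm proteins forms the core of U1, U2, U4 and U5. SR proteins bind exonic enhancers and mostly favour the inclusion of an exon, and hnRNP proteins often bind silencers and favour its skipping. Many genes of both families control their own mRNA through poison exons that lead to nonsense-mediated decay. The values here are per gene, so such isoforms could not be told apart.

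RNA was measured by poly(A) RNA-seq in 6 libraries of 3 lines made from NE-4C, a mouse neural stem cell line that lacks p53, 2 libraries in each line. H3.3K27M cells carry a knockout of H3f3a, a gene for the histone variant H3.3, and stably express HA-tagged H3.3 with methionine in place of lysine 27. Cbfa2t2_KO cells carry knockouts of H3f3a and of Cbfa2t2, which encodes a transcriptional corepressor, and stably express HA-tagged wild-type H3.3. H3.3WT cells, the controls, carry the H3f3a knockout with the same wild-type transgene, so the absence of p53, the loss of H3f3a and a stably expressed tagged histone are common to all libraries. The labels do not say how many clones stand behind each line or whether the libraries of a line come from separate cultures, so each p-value measures only the spread between these samples. The study's title names CBFA2T2 as a reader of histone H3K27, and the comparisons ask how loss of that protein, and the H3.3K27M histone, go with gene expression.

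Expression was deposited by the authors as FPKM, fragments scaled to the length of the transcript and to the library total, a scale on which genes of different length can be set side by side. Read counts are not in the tables, and with the depth unknown, counting intervals cannot be given. Correlations of log2 values across genes were 0.984 to 0.988 between libraries of a line, 0.967 to 0.978 between H3.3K27M and Cbfa2t2_KO, 0.950 to 0.957 between H3.3K27M and H3.3WT and 0.945 to 0.954 between Cbfa2t2_KO and H3.3WT. Cbfa2t2 was low throughout, with 2.02 and 0.855 FPKM in H3.3K27M, 1.02 and 0.769 FPKM in Cbfa2t2_KO and 1.38 and 1.35 FPKM in H3.3WT, and values per gene do not show which part of the gene is deleted. H3f3a had 77.3 and 66.8 FPKM in H3.3K27M, 82.1 and 66.3 FPKM in Cbfa2t2_KO and 131 and 181 FPKM in H3.3WT, a sum that can hold transgene reads. Against H3.3WT its log2 change was -1.09 in H3.3K27M and -1.05 in Cbfa2t2_KO (limma, adjusted p = 0.00708 and 0.00501). H3f3b, the second gene for H3.3, had 120 and 135 FPKM in H3.3K27M, 154 and 136 FPKM in Cbfa2t2_KO and 171 and 200 FPKM in H3.3WT. It was not called in either line (limma, adjusted p = 0.0558 and 0.0948). Of 15 neural stem cell markers 12 were in the tables, and their summed FPKM was 175 and 184 in H3.3K27M, 155 and 147 in Cbfa2t2_KO and 224 and 233 in H3.3WT. Among them Nes and Sox2 were present, Sox1 and Fabp7 were not in the tables and Pax6 stayed below 1 FPKM. Of 10 tested, 2 were higher and 5 lower in each line than in H3.3WT (limma). Nes had 16.8 and 14.3 FPKM in H3.3K27M, 24.0 and 18.1 FPKM in Cbfa2t2_KO and 35.2 and 38.8 FPKM in H3.3WT. Vim went the other way, with 34.6 and 41.8, 27.3 and 26.5, and 10.3 and 12.1 FPKM in the same order. Sox2 was lowest in Cbfa2t2_KO, with 12.3 and 9.55 FPKM, against 28.1 and 32.2 FPKM in H3.3K27M and 30.9 and 34.4 FPKM in H3.3WT. Of 8 epithelial markers 7 were in the tables, with sums of 241 and 237 FPKM in H3.3K27M, 283 and 276 FPKM in Cbfa2t2_KO and 169 and 141 FPKM in H3.3WT. Of 6 tested, 3 were higher in H3.3K27M and 4 in Cbfa2t2_KO, and 0 were lower (limma). Of 7 astrocyte markers 3 were in the tables (Gfap, Aqp4, S100b and Slc1a2 were not), and their sums were 88.2 and 76.7 FPKM in H3.3K27M, 76.1 and 67.4 FPKM in Cbfa2t2_KO and 44.7 and 28.9 FPKM in H3.3WT, with 3 of 3 higher in H3.3K27M and 2 of 3 in Cbfa2t2_KO (limma). Of 10 neuron markers 5 were in the tables, without Dcx and Map2, with 77.5 and 82.2 FPKM in H3.3K27M, 136 and 151 FPKM in Cbfa2t2_KO and 79.4 and 77.9 FPKM in H3.3WT. Of 4 tested, 0 were higher and 2 lower in H3.3K27M, and 1 was higher and 0 lower in Cbfa2t2_KO (limma). Of 9 mesenchymal and fibroblast markers 8 were in the tables, with 33.7 and 35.8 FPKM in H3.3K27M, 24.6 and 25.5 FPKM in Cbfa2t2_KO and 31.4 and 38.9 FPKM in H3.3WT. In H3.3K27M 1 of 5 tested was higher and 1 lower, and in Cbfa2t2_KO 2 of 6 were higher and 3 lower (limma). Over all genes tested, 8.42% were higher and 17.8% lower in H3.3K27M, and 13.1% and 21.5% in Cbfa2t2_KO. Summed oligodendrocyte, leukocyte and endothelial markers were at most 4.37 FPKM in any library, and the part of any cell type in the results below was not tested.

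RefSeq promoters (GRCm38.p6, 250 bases before to 50 after the start in the table) matched 46 of the 53 symbols. These had 61 windows, and only the first listed start of each gene was used, for members and for the genes set beside them. Motifs at other starts are not given. For Hnrnpl and Hnrnpm the printed window lies inside the gene coordinates given below. Snrpd1, Hnrnpll, Snrpb, U2af2, Sf3b4, Hnrnpul2 and Sf3b5 had no entry used here. The promoters printed here are those of the 3 hnRNP genes that were higher in each line than in H3.3WT, and of the 2 genes lower in Cbfa2t2_KO that held 2 copies of CCGGAAG; the last choice was made after the values were seen. Each is printed 5′ to 3′ on the strand of its gene from 250 bases before to 25 after the start, and the capitals mark motifs on either strand. These are CCGGAAG, the core of sites for ETS factors, the CCAAT box, the E-box CACGTG and the TATA box TATAAA.
Hnrnpa1 promoter: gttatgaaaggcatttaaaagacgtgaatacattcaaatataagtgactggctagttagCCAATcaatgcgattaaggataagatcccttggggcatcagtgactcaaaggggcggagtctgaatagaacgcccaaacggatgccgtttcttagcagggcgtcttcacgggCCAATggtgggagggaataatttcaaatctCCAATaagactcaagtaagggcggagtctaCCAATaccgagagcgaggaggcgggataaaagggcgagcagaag
Hnrnpl promoter: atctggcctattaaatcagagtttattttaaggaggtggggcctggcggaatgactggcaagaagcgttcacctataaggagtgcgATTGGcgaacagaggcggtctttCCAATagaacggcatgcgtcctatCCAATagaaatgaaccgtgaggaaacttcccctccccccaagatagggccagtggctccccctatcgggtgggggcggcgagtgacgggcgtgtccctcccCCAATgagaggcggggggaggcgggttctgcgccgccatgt
Hnrnpm promoter: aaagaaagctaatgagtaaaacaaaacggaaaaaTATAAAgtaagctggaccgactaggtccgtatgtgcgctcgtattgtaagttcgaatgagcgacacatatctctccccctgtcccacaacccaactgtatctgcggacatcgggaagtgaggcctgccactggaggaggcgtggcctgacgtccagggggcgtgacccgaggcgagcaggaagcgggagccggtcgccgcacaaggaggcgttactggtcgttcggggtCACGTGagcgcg
Sf3b6 promoter: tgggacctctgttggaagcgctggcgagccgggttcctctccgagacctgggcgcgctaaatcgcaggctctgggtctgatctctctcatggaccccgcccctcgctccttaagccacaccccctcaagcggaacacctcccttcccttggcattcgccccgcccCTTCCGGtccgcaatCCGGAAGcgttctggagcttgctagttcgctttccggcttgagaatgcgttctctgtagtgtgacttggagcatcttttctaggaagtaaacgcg
Snrpe promoter: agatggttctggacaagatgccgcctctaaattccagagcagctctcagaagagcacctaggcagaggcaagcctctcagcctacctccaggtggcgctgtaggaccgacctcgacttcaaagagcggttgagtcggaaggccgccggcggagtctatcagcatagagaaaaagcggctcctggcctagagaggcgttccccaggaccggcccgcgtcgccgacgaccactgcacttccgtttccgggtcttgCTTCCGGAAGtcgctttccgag

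These stretches lie at chr15:103240147-103240421 (+ strand) for Hnrnpa1, chr7:28810640-28810914 (+) for Hnrnpl, chr17:33685434-33685708 (- strand) for Hnrnpm, chr12:4817358-4817632 (+) for Sf3b6 and chr1:133610256-133610530 (-) for Snrpe. Hnrnpa1 held 4 copies of CCAAT, all on the gene's strand, the nearest beginning at base -19 from the start. Hnrnpl also held 4, 1 of them on the other strand, with the nearest at -16. The Hnrnpm window held no CCAAT, 1 CACGTG that begins at base 14 after the start, and 1 TATAAA far upstream at -216. In Sf3b6 the copies of CCGGAAG lie at -85 and -70, and in Snrpe they face each other and overlap, at bases 4 and 7 after the start. These letters were searched on both strands of the whole windows, and matches to different motifs did not overlap in the printed promoters.

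Across the family, CCGGAAG was in 16 of 46 promoters (34.8%), against 19.9% of the 8155 promoters of tested genes and 9.12% of all 27025. CCAAT was in 22 (47.8%), against 39.8% of tested genes and 37.9% of all. CACGTG was in 5 (10.9%, against 11% and 7.24%), TATAAA in 6 (13.0%, against 6.0% and 14.2%), AAGATGGC in 2 (4.35%, against 5.42% and 2.88%) and the palindromic NRF1 motif in 0, against 2.18% and 0.977%. Of the 7 genes lower in Cbfa2t2_KO that had a promoter entry, 4 held CCGGAAG (Snrpe, Sf3a3, Sf3b3 and Sf3b6). A match of letters is a description of the window and says nothing of what binds there.

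The splicing factor genes were expressed well above the typical gene. The median of their mean level over the 6 libraries was 40.5 FPKM, against 4.86 FPKM over all genes of both tables; 45 members had at least 10 FPKM, 10 had at least 100 FPKM and 5 were below 5 FPKM. Together they held 0.942% and 0.921% of the summed FPKM in the H3.3K27M libraries, 0.918% and 0.875% in Cbfa2t2_KO and 0.956% and 1.01% in H3.3WT, a narrow range in which H3.3WT was highest. This holds for the share only. The members' sums were 3495 and 3842 FPKM in H3.3K27M, 3445 and 3441 FPKM in Cbfa2t2_KO and 3477 and 3686 FPKM in H3.3WT. Totals over all shared genes were unequal, at 371160 and 417267, 375321 and 393192, and 363536 and 366775 FPKM in the same order.

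Among SR genes, Srsf2 was highest at a mean of 134 FPKM over all 6 libraries and Srsf10, a splicing repressor when dephosphorylated, lowest at 4.26 FPKM. The hnRNP genes ran from Hnrnpab, which binds single-stranded nucleic acids, at 466 FPKM down to Hnrnpa3 at 1.47 FPKM. Hnrnpa3 was also the most uneven, with 1.37 and 1.36 FPKM in H3.3K27M, 2.47 and 0.293 FPKM in Cbfa2t2_KO and 2.03 and 1.28 FPKM in H3.3WT. Several of these genes, Hnrnpa1 and Hnrnpa3 among them, have processed copies elsewhere in the genome, and the sources used here do not give how reads shared with such copies were counted. In SF3A and SF3B the levels ran from Sf3b2 at 144 FPKM to Sf3b1 at 17.4 FPKM. Within the Sm core Snrpb led with 256 FPKM and Snrpd3 was lowest with 27 FPKM; the ring itself holds 1 copy of each protein. Of the particle-specific proteins Snrpa, part of U1, had 55.1 FPKM and Snrpb2, part of U2, had 13.2 FPKM. U2af2, the large U2AF subunit, had 176 FPKM, and the second U2af1l4 ID had 1.08 FPKM.

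**Figure D1:**
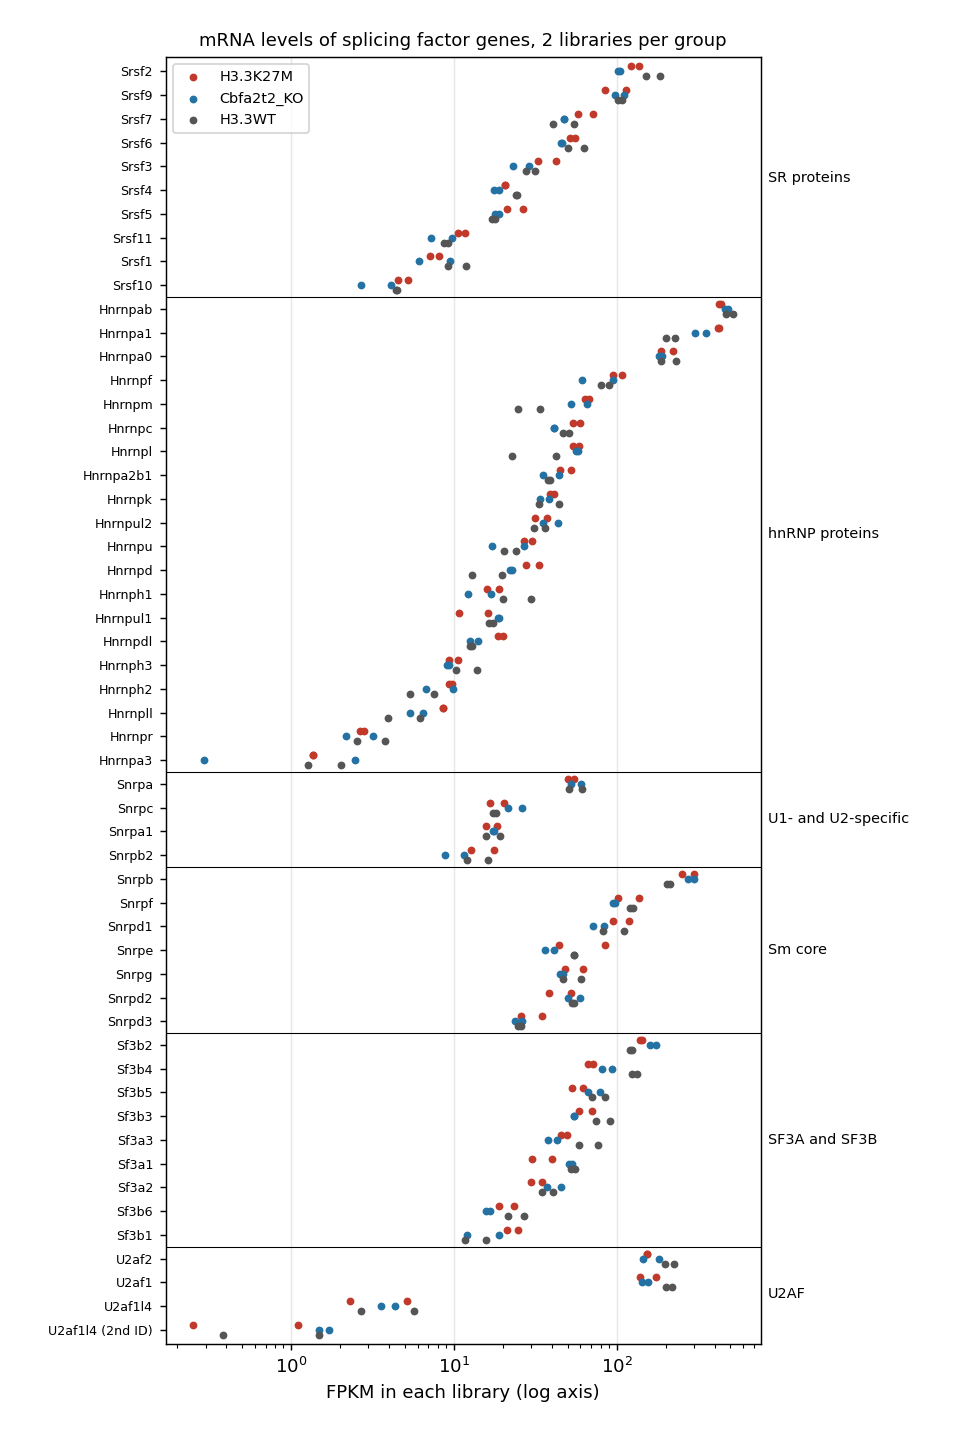
FPKM of the 54 splicing factor genes (rows, by role) in each library on a log axis, with 2 points each for H3.3K27M, Cbfa2t2_KO and H3.3WT. Most genes differ far more from each other than between lines: Hnrnpab averaged 466 FPKM and Hnrnpa3 1.47 FPKM, while the clearest gap between lines, at Hnrnpm, is about a doubling.

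Summed over roles, the hnRNP genes had 1574 and 1634 FPKM in H3.3K27M, 1516 and 1398 FPKM in Cbfa2t2_KO and 1286 and 1413 FPKM in H3.3WT. Only the H3.3K27M sums lay above both H3.3WT sums. Such sums weigh abundant genes most: Hnrnpa1 alone had means of 422, 328 and 216 FPKM in H3.3K27M, Cbfa2t2_KO and H3.3WT. The U2AF sums were 296 and 333 FPKM in H3.3K27M, 293 and 345 FPKM in Cbfa2t2_KO and 405 and 447 FPKM in H3.3WT. Those of SF3A and SF3B were 504 and 483 FPKM in H3.3K27M, 532 and 568 FPKM in Cbfa2t2_KO and 588 and 632 FPKM in H3.3WT, so for both roles the H3.3WT libraries lay above all others. For the SR genes the sums were 418 and 491 FPKM in H3.3K27M, 385 and 383 FPKM in Cbfa2t2_KO and 502 and 446 FPKM in H3.3WT, which put Cbfa2t2_KO below both other lines. Srsf2 alone had means of 130, 104 and 168 FPKM in the same order, so neither sum shows a shift of the whole role.

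The first comparison asked which splicing factor genes differed after loss of Cbfa2t2. Of 54 members tested, 5 were higher and 8 lower in Cbfa2t2_KO than in H3.3WT at an adjusted p under 0.05 (limma on log2(FPKM + 1), Benjamini-Hochberg over 11626 genes), which is 24.1% of members against 34.6% of all genes tested (13.1% higher and 21.5% lower). The median log2 change was -0.08 over members and -0.11 over all genes. The hnRNP genes Hnrnpm, Hnrnpl and Hnrnpa1 rose, together with Sf3b2 and Snrpb; those that fell included 4 subunits of SF3A and SF3B, the SR gene Srsf2, the hnRNP gene Hnrnph1, Snrpe and U2af1. Changes were small, with 45 of 54 members under 0.5 in absolute log2 change and 0 at 1 or above (Hnrnpm just short of it), against 62.8% and 9.54% of all genes. In bulk RNA, fewer cells that express a gene and less RNA per cell cannot be told apart. Where groups of 2 libraries are said below not to overlap, this is a description that adds no weight to a call. The share of all genes with such groups was not computed.

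Among hnRNP genes 3 of 20 rose and 1 fell, with a median log2 change of 0.00. Hnrnpm (chr17:33646233-33686860, - strand, up to 17 exons in GENCODE on GRCm38), which binds GU-rich RNA and controls exon choice, had 65.6 and 52.8 FPKM in Cbfa2t2_KO, against 24.8 and 34.0 FPKM in H3.3WT. Both knockout libraries lay above both controls, and the log2 change was 1.00 ± 0.19 (SE; limma, adjusted p = 0.00603). Hnrnpl (chr7:28808541-28822266, + strand, up to 14 exons), which binds CA repeats, had 56.0 and 58.1 FPKM in Cbfa2t2_KO, against 22.9 and 42.4 FPKM in H3.3WT. The groups did not overlap, but the controls lay far apart, and the log2 change was 0.85 ± 0.25 (limma, adjusted p = 0.0332). Hnrnpa1 (chr15:103240432-103246692, + strand, up to 13 exons), a repressor of exons that also takes part in mRNA export, had 353 and 302 FPKM in Cbfa2t2_KO, against 229 and 202 FPKM in H3.3WT. Here too the groups stood apart, with a log2 change of 0.60 ± 0.15 (limma, adjusted p = 0.0185). Hnrnph1, which binds runs of G, fell to 16.9 and 12.2 FPKM in Cbfa2t2_KO, against 20.0 and 29.9 FPKM in H3.3WT. That is a log2 change of -0.73 ± 0.23 (limma, adjusted p = 0.0384) with no overlap of the groups.

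The Hnrnpm call held under every setting and every library left out. Without 1 library, Hnrnpa1 lost its call when Cbfa2t2_KO replicate 1 or H3.3WT replicate 2 was dropped (limma, adjusted p = 0.0835 and 0.126). Hnrnpl lost it without Cbfa2t2_KO replicate 1, Cbfa2t2_KO replicate 2 or H3.3WT replicate 1 (limma, adjusted p = 0.102, 0.151 and 0.102), and under correction for GC content, transcript length and exon number (adjusted p = 0.126). Its log2 change was 0.42 without H3.3WT replicate 1 and 1.28 without H3.3WT replicate 2, so the size rests on which control library is kept. Hnrnph1 lost it without Cbfa2t2_KO replicate 2 or H3.3WT replicate 2 (limma, adjusted p = 0.220 and 0.191, with a log2 change of -0.45 without H3.3WT replicate 2) and under quantile normalization (adjusted p = 0.0641). Hnrnpm shares exonic sequence with March2 on the same strand, and Hnrnpl with the antisense gene Gm44702; the sources used here do not give whether counting used strand.

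Of 10 SR genes, 1 fell, 0 rose, and 9 had a negative log2 change, with a median of -0.25. Over all genes tested, 21.5% fell and 57.9% had a negative log2 change. Srsf2, also called SC35, had 105 and 103 FPKM in Cbfa2t2_KO, against 185 and 151 FPKM in H3.3WT. The groups were well apart, with a log2 change of -0.68 ± 0.15 (limma, adjusted p = 0.0108). Without Cbfa2t2_KO replicate 2 or H3.3WT replicate 1 the adjusted p was 0.0647 and 0.0577. Exons of Srsf2 overlap those of Mfsd11 and Mettl23 on the other strand. Srsf4 had 17.6 and 19.0 FPKM in Cbfa2t2_KO, against 24.0 and 24.6 FPKM in H3.3WT, a log2 change of -0.39 ± 0.14 that did not pass (limma, adjusted p = 0.0622). Srsf1, an archetype of the family, had 9.52 and 6.16 FPKM in Cbfa2t2_KO, against 9.19 and 11.8 FPKM in H3.3WT, and these groups overlapped.

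In SF3A and SF3B, 1 of 9 genes rose and 4 fell. Sf3a3, a subunit of SF3A, had 43.3 and 38.1 FPKM in Cbfa2t2_KO, against 59.1 and 76.8 FPKM in H3.3WT, a log2 change of -0.72 ± 0.16 (limma, adjusted p = 0.0134). Sf3b3 had 54.6 and 54.9 FPKM in Cbfa2t2_KO, against 74.5 and 90.6 FPKM in H3.3WT, a log2 change of -0.58 ± 0.14 (limma, adjusted p = 0.0187). Sf3b6, which contacts the branch-point adenosine, had 16.8 and 15.7 FPKM in Cbfa2t2_KO, against 21.7 and 27.2 FPKM in H3.3WT, a log2 change of -0.55 ± 0.16 (limma, adjusted p = 0.0310). In all 3 genes the knockout libraries were close to each other and below both controls. Sf3b4 (chr3:96172332-96177564, + strand, up to 6 exons), which contacts RNA upstream of the branch point, had 81.9 and 93.7 FPKM in Cbfa2t2_KO, against 133 and 125 FPKM in H3.3WT, a log2 change of -0.55 ± 0.14 (limma, adjusted p = 0.0181). Sf3b2, the partner of Sf3b4, went the other way, with 161 and 176 FPKM in Cbfa2t2_KO, against 124 and 121 FPKM in H3.3WT and a log2 change of 0.46 ± 0.13 (limma, adjusted p = 0.0306). Both pairs of groups were separate, so within SF3B subunits moved in opposite directions.

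Sf3a3 lost its call without Cbfa2t2_KO replicate 2 or H3.3WT replicate 2 (limma, adjusted p = 0.0940 and 0.0707). For Sf3b3 this happened without Cbfa2t2_KO replicate 1, Cbfa2t2_KO replicate 2 or H3.3WT replicate 2 (adjusted p = 0.0720, 0.0884 and 0.104), for Sf3b6 without the same libraries (0.0803, 0.142 and 0.157) and for Sf3b4 without Cbfa2t2_KO replicate 1, H3.3WT replicate 1 or H3.3WT replicate 2 (0.0883, 0.0739 and 0.0551). Sf3b2 lost it whichever of the 4 libraries was dropped (limma, adjusted p = 0.0631 to 0.139). Median-of-ratios scaling also ended the calls of Sf3b3, Sf3b4 and Sf3b6 (limma, adjusted p = 0.0552, 0.0793 and 0.0679), quantile normalization that of Sf3b6 (0.0695), and a fit without trend and the correction for gene properties that of Sf3b2 (0.0523 and 0.122, with a log2 change of 0.21 under the correction). Sf3b2, Sf3b3 and Sf3b4 each share exonic sequence with a gene on the other strand.

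The Sm core had 1 gene higher and 1 lower of 7. Snrpb, which encodes SmB and its longer isoform, had 274 and 297 FPKM in Cbfa2t2_KO, against 213 and 203 FPKM in H3.3WT, a log2 change of 0.45 ± 0.14 (limma, adjusted p = 0.0346). Snrpe, which encodes SmE, had 41.1 and 36.3 FPKM in Cbfa2t2_KO, against 55.0 and 54.5 FPKM in H3.3WT, a log2 change of -0.49 ± 0.14 (limma, adjusted p = 0.0265). Neither pair of groups overlapped, and each call was lost whichever of the 4 libraries was dropped (adjusted p = 0.0645 to 0.169 for Snrpb and 0.0515 to 0.142 for Snrpe). Snrpb was also not called under quantile normalization (adjusted p = 0.0912, log2 change 0.29), without trend (0.0541) or in a fit of all 6 libraries (0.0584), and Snrpe not under median-of-ratios scaling (0.0990) or in that fit (0.176). The pseudogene Snrpert, annotated as processed, had 23.6 and 19.5 FPKM in Cbfa2t2_KO, against 31.3 and 65.6 FPKM in H3.3WT. The other 5 genes of the ring had log2 changes between -0.35 (Snrpf) and 0.03 (Snrpd2), with an adjusted p of 0.0643 for Snrpf.

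U2af1, the small U2AF subunit that reads the AG of the 3′ splice site, fell to 143 and 155 FPKM in Cbfa2t2_KO, against 201 and 219 FPKM in H3.3WT. The groups did not overlap, with a log2 change of -0.49 ± 0.14 (limma, adjusted p = 0.0266), and the call was lost whichever library was dropped (adjusted p = 0.0626 to 0.139), under median-of-ratios scaling (0.129) and in a fit of all 6 libraries (0.0510). U2af2 had 146 and 183 FPKM in Cbfa2t2_KO, against 198 and 224 FPKM in H3.3WT, a log2 change of -0.36 ± 0.16 that did not pass (limma, adjusted p = 0.112). It was called under quantile normalization and with the correction for GC content, transcript length and exon number. None of the 4 genes of U1- and U2-specific proteins passed. Snrpc, which stabilises U1 on the 5′ splice site, came nearest with 21.5 and 26.1 FPKM in Cbfa2t2_KO, against 17.3 and 18.1 FPKM in H3.3WT (limma log2 change 0.40 ± 0.15, adjusted p = 0.0785). It was called under median-of-ratios scaling, quantile normalization and the same correction.

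The split of calls depended on scaling. Median-of-ratios scaling, which moved the median log2 change of all genes from -0.11 to 0.00, gave 7 members higher and 3 lower, so that 70.0% of calls were higher, against 38.5% as deposited, and a fit without trend gave 3 and 8 (27.3%). Leaving out 1 library gave 1 higher and 4 lower without Cbfa2t2_KO replicate 1, 2 and 1 without Cbfa2t2_KO replicate 2, 3 and 4 without H3.3WT replicate 1, and 3 and 1 without H3.3WT replicate 2.

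**Figure D2:**
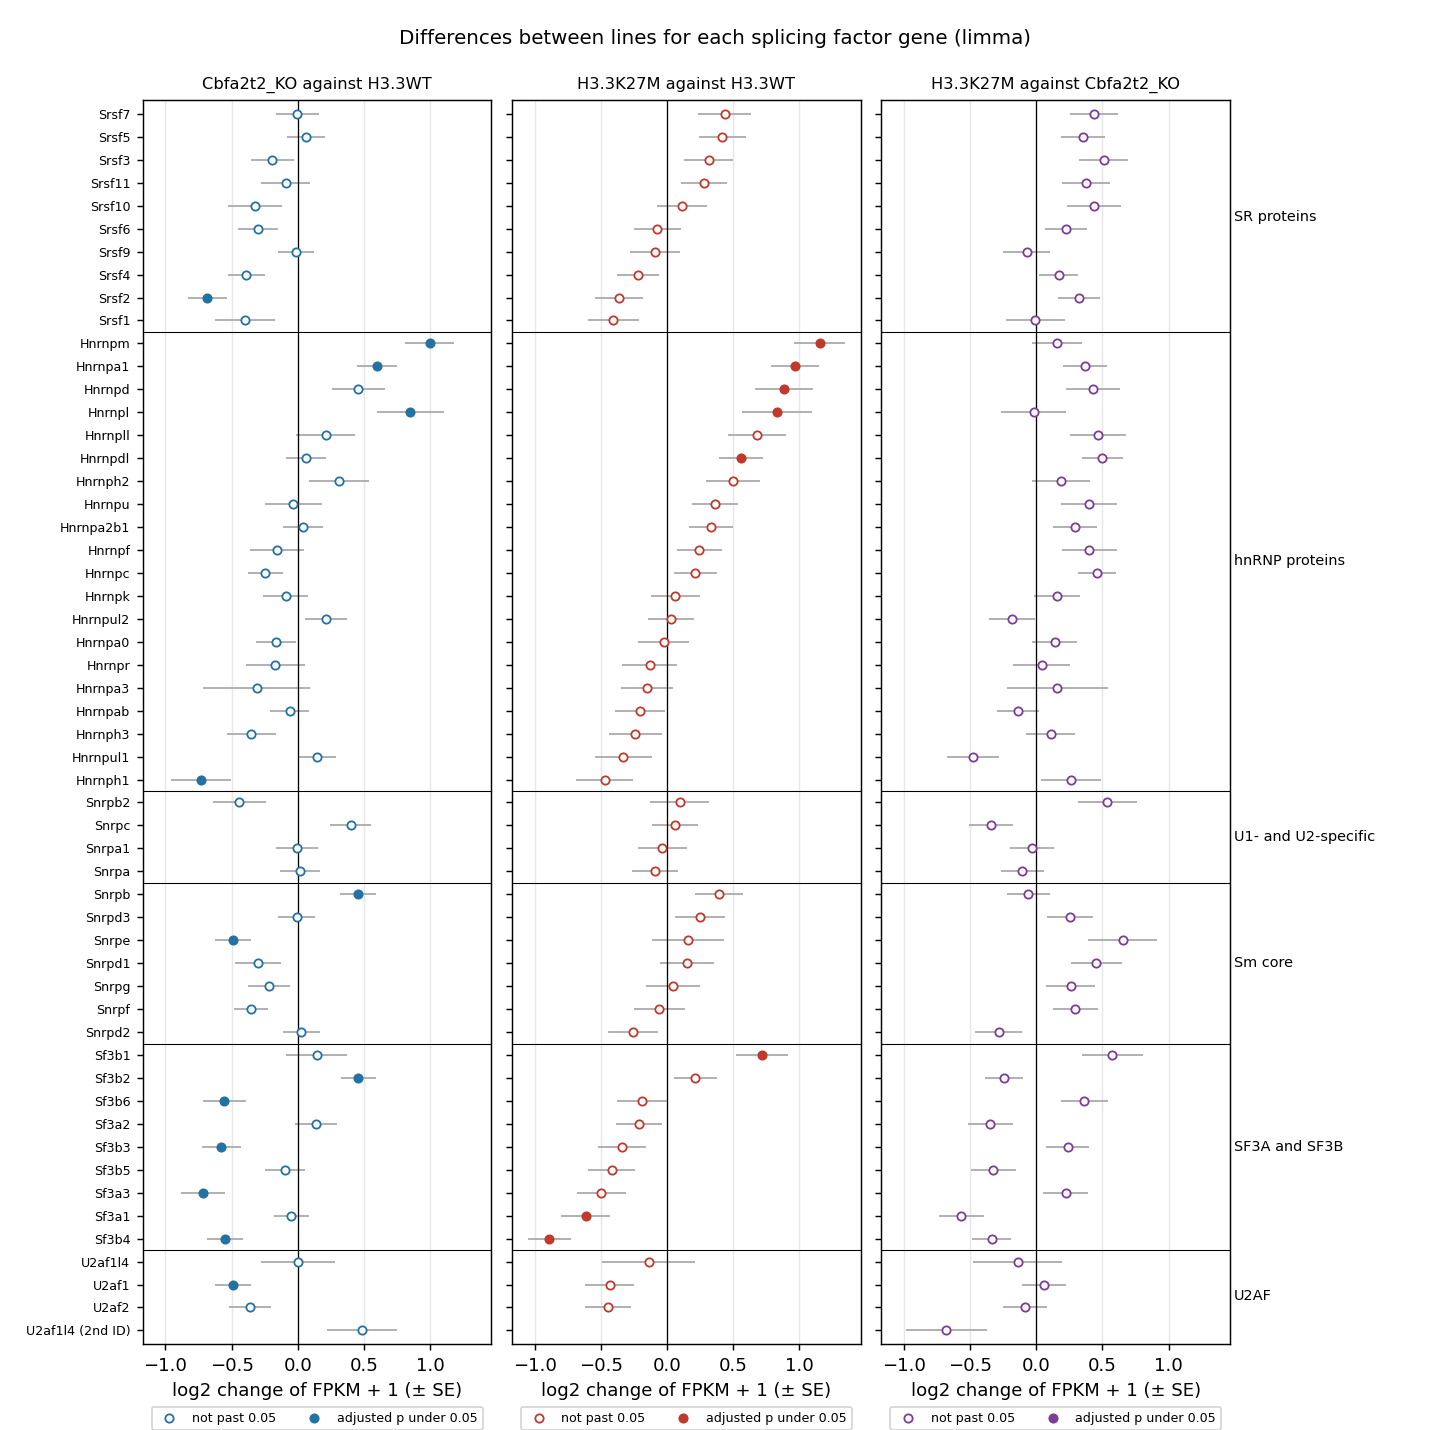
Log2 change of FPKM + 1 (horizontal axis, ± SE from limma) of each splicing factor gene (rows, by role) for Cbfa2t2_KO against H3.3WT, H3.3K27M against H3.3WT and H3.3K27M against Cbfa2t2_KO. Filled points passed an adjusted p of 0.05: 13 genes in the left panel, 8 in the middle and 0 in the right, with Hnrnpm at 1.00 and 1.15 the farthest to the right in the first and second.

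The second comparison asked which of these genes differed in cells expressing H3.3K27M. It uses the same 2 H3.3WT libraries as the first, so the 2 sets of values are not independent of each other. Of 53 members tested, 6 were higher and 2 lower in H3.3K27M than in H3.3WT, which is 15.1%, against 26.2% of all 11623 genes tested (8.42% higher and 17.8% lower); the second U2af1l4 ID fell below the filter. The median log2 change was 0.03 over members and -0.12 over all genes. The genes that rose were 5 hnRNP genes (Hnrnpm, Hnrnpa1, Hnrnpd, Hnrnpl and Hnrnpdl) and Sf3b1, and those that fell were Sf3b4 and Sf3a1. Of 10 SR, 7 Sm core and 4 U1- and U2-specific genes 0 passed, with 1, 0 and 0 at an unadjusted p under 0.05.

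Of 20 hnRNP genes 5 rose and 0 fell, and the median log2 change of the role was 0.23. Hnrnpm had 63.9 and 67.5 FPKM in H3.3K27M, against 24.8 and 34.0 FPKM in H3.3WT. The means differed 2.24-fold, with a log2 change of 1.15 ± 0.19 (limma, adjusted p = 0.00492), and the call held under every setting and every library left out. Hnrnpa1 had 418 and 426 FPKM in H3.3K27M, against 229 and 202 FPKM in H3.3WT. The H3.3K27M libraries lay close together and far above the controls, with a log2 change of 0.97 ± 0.18 (limma, adjusted p = 0.00727). Hnrnpd, also called AUF1, which binds AU-rich elements and speeds mRNA decay, had 27.9 and 33.3 FPKM in H3.3K27M, against 19.9 and 13.0 FPKM in H3.3WT. Its log2 change was 0.88 ± 0.22 (limma, adjusted p = 0.0215), with no overlap. Hnrnpdl, its close relative, had 18.7 and 20.1 FPKM in H3.3K27M, against 12.7 and 13.0 FPKM in H3.3WT, a log2 change of 0.56 ± 0.17 (limma, adjusted p = 0.0388). Hnrnpl had 53.8 and 58.8 FPKM in H3.3K27M, against 22.9 and 42.4 FPKM in H3.3WT, a log2 change of 0.83 ± 0.26 (limma, adjusted p = 0.0474).

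Hnrnpa1 was no longer called without H3.3WT replicate 2 (limma, adjusted p = 0.0896), and Hnrnpd without H3.3K27M replicate 2 or H3.3WT replicate 2 (0.113 and 0.158). Hnrnpdl was called in 0 of the 4 fits that left out 1 library (adjusted p = 0.0570 to 0.172), and it missed the threshold with the correction for gene properties (0.0628, log2 change 0.36). Hnrnpl lost its call without H3.3K27M replicate 1, H3.3K27M replicate 2 or H3.3WT replicate 1 (limma, adjusted p = 0.0982, 0.181 and 0.291), and its log2 change was 0.40 without H3.3WT replicate 1 and 1.26 without H3.3WT replicate 2. It was also lost with a pseudocount of 0.1 (0.0539), without the filter (0.0583), without trend (0.0549) and with the correction for gene properties (0.0790). Exons of Hnrnpd overlap the antisense gene Gm17092.

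Hnrnpll, the paralog of Hnrnpl known for its role in lymphocyte splicing, had 8.59 and 8.58 FPKM in H3.3K27M, against 3.98 and 6.20 FPKM in H3.3WT. The groups were separate, but the log2 change of 0.68 ± 0.22 just missed the threshold (limma, adjusted p = 0.0525). Of the 8 other processing settings 5 called it, but the fits that left out a library did not. Hnrnph1 had 16.0 and 18.9 FPKM in H3.3K27M, against 20.0 and 29.9 FPKM in H3.3WT, a log2 change of -0.47 ± 0.22 that did not pass (limma, adjusted p = 0.139). Hnrnpab, the most abundant member, had 424 and 436 FPKM in H3.3K27M, against 468 and 522 FPKM in H3.3WT, with a log2 change of -0.20 ± 0.19 (limma, adjusted p = 0.455).

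In SF3A and SF3B, 1 of 9 genes rose and 2 fell. Sf3b4 had 71.3 and 67.2 FPKM in H3.3K27M, against 133 and 125 FPKM in H3.3WT, and the ratio of the means was 0.537. The groups were far apart for this role, with a log2 change of -0.89 ± 0.16 (limma, adjusted p = 0.00667). Sf3a1, the largest subunit of SF3A, had 40.4 and 30.3 FPKM in H3.3K27M, against 52.2 and 56.0 FPKM in H3.3WT, a log2 change of -0.61 ± 0.19 (limma, adjusted p = 0.0416). Sf3b1, the subunit that clamps the branch-point helix, had 24.7 and 21.4 FPKM in H3.3K27M, against 11.7 and 15.8 FPKM in H3.3WT. It stood above both controls in both libraries, with a log2 change of 0.72 ± 0.19 (limma, adjusted p = 0.0290). Sf3b4 missed the threshold narrowly without H3.3WT replicate 1 or replicate 2 (limma, adjusted p = 0.0612 and 0.0506). Sf3a1 lost its call without H3.3K27M replicate 2, H3.3WT replicate 1 or H3.3WT replicate 2 (limma, adjusted p = 0.15, 0.14 and 0.20), with a log2 change of -0.41 without H3.3K27M replicate 2. It was also lost without the filter (0.0519), without trend (0.0525) and under median-of-ratios scaling (0.0987) or quantile normalization (0.0958). Sf3b1 was not called when any 1 library was dropped (adjusted p = 0.0549 to 0.197), nor with the correction for gene properties (0.0508, log2 change 0.48).

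All 3 U2AF IDs tested had negative log2 changes, as did 59.1% of all genes tested. U2af1 had 138 and 174 FPKM in H3.3K27M, against 201 and 219 FPKM in H3.3WT, with -0.43 ± 0.19 (limma, adjusted p = 0.118). U2af2 had 154 and 154 FPKM in H3.3K27M, against 198 and 224 FPKM in H3.3WT, with -0.45 ± 0.17 (limma, adjusted p = 0.0873). The groups did not overlap in either gene, and neither passed the test. Both were called under quantile normalization and with the correction for GC content, transcript length and exon number. Srsf2 had 123 and 136 FPKM in H3.3K27M, against 185 and 151 FPKM in H3.3WT, also separate, with -0.36 ± 0.18 (limma, adjusted p = 0.169). Srsf7 had 58.3 and 71.5 FPKM in H3.3K27M, against 55.1 and 40.9 FPKM in H3.3WT (log2 change 0.44 ± 0.20; limma, adjusted p = 0.137). Srsf5 had 21.3 and 26.6 FPKM in H3.3K27M, against 17.2 and 18.0 FPKM in H3.3WT (0.42 ± 0.18, adjusted p = 0.116), so in both of these the H3.3K27M libraries were the higher ones without passing. Srsf5 was called under quantile normalization. On the log scale Snrpe was the most uneven of the Sm genes in this line, with 44.2 and 84.7 FPKM in H3.3K27M, against 55.0 and 54.5 FPKM in H3.3WT.

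Leaving out 1 library gave 4 members higher and 2 lower without H3.3K27M replicate 1, 2 and 1 without H3.3K27M replicate 2, 3 and 0 without H3.3WT replicate 1, and 2 and 0 without H3.3WT replicate 2. With the correction for GC content, transcript length and exon number 4 were higher and 9 lower, so 30.8% of calls were higher, against 75.0% as deposited. The members' median log2 change was then -0.17, and 88.9% (8 and 1) were higher under median-of-ratios scaling. Hnrnph1 and Hnrnph3 (-0.47 and -0.24 as deposited) were called only with that correction, and Hnrnpab (-0.20) only under quantile normalization. Hnrnpll and Hnrnph2 (0.68 and 0.50 as deposited) were also called only under other settings.

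**Figure D3:**
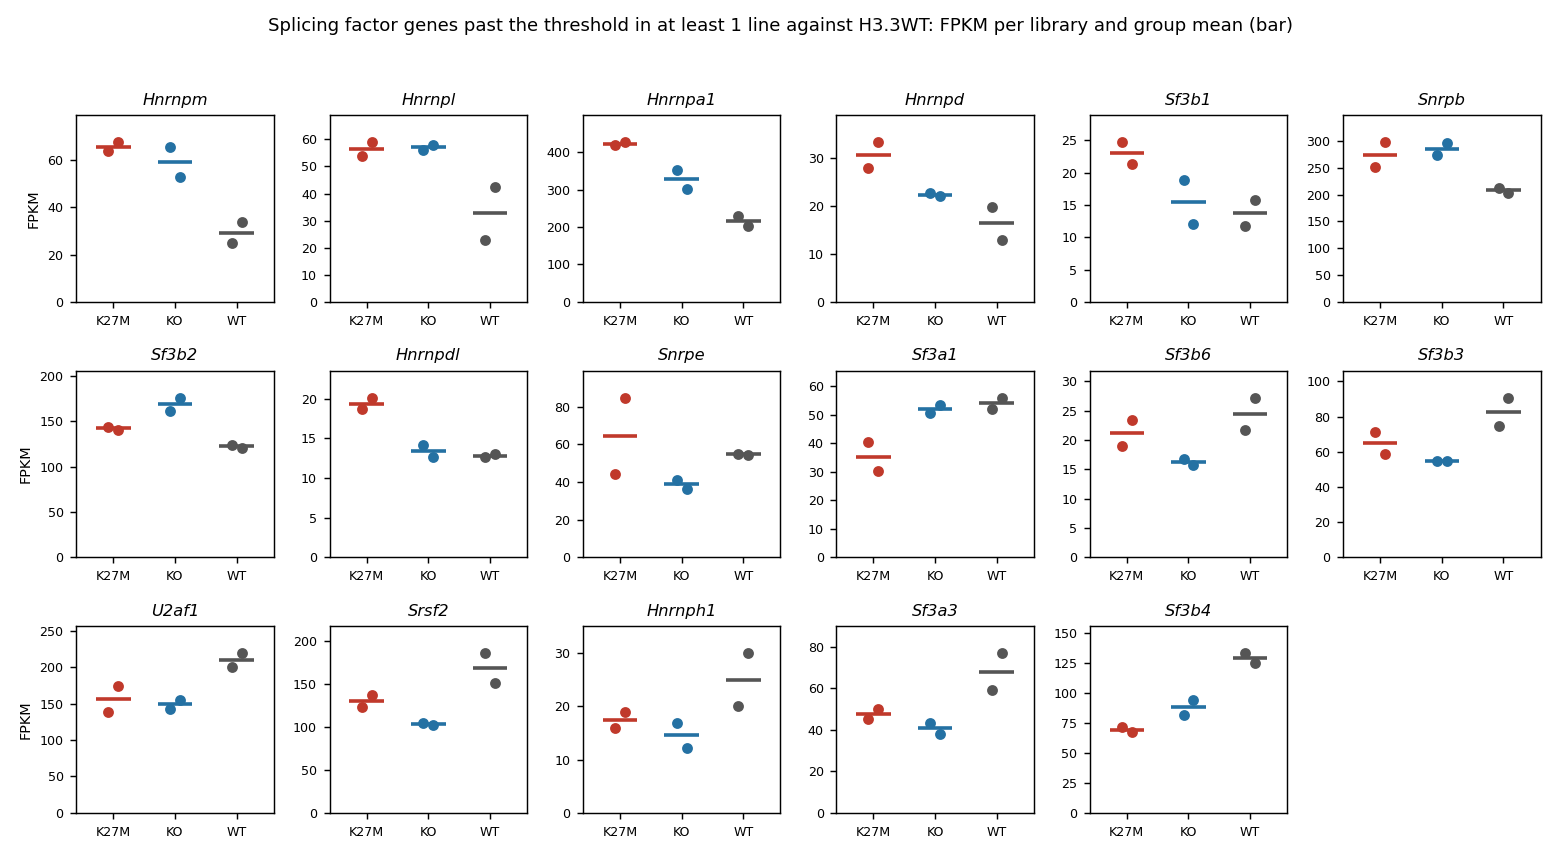
FPKM (vertical axes, from 0) of the 17 splicing factor genes past the threshold in Cbfa2t2_KO or H3.3K27M against H3.3WT, with 1 point per library and a bar at the mean of each line (K27M is H3.3K27M, KO is Cbfa2t2_KO, WT is H3.3WT). Hnrnpm, Hnrnpl and Hnrnpa1 stand higher in both lines than in H3.3WT and Sf3b4 lower, at means of 69.2, 87.8 and 129 FPKM in H3.3K27M, Cbfa2t2_KO and H3.3WT.

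Side by side, the log2 changes in H3.3K27M and in Cbfa2t2_KO, each against the shared H3.3WT libraries, were 1.15 and 1.00 for Hnrnpm, 0.97 and 0.60 for Hnrnpa1, 0.83 and 0.85 for Hnrnpl (0.40 and 0.42 without H3.3WT replicate 1), 0.88 and 0.46 for Hnrnpd and -0.89 and -0.55 for Sf3b4. For Sf3b1 they were 0.72 and 0.14, for Hnrnpdl 0.56 and 0.06 and for Sf3a1 -0.61 and -0.05. A call in one line and not in the other does not show a difference between them, which was tested directly.

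The direct comparison asked where the H3.3K27M and Cbfa2t2_KO lines differ from each other. Of 54 members 0 passed in either direction (limma, adjusted p under 0.05, fit of all 6 libraries), against 7.8% of all 11601 genes tested (3.12% higher and 4.68% lower); 11 members had an unadjusted p under 0.05, as did 28.7% of all genes. The median log2 change was 0.18 over members and -0.02 over all genes, and 35 of 54 members (64.8%) were positive, against 48.1% of all genes. By role the median was 0.34 for SR genes (8 of 10 positive), 0.26 for the Sm core (5 of 7), 0.17 for hnRNP genes (16 of 20) and -0.24 for SF3A and SF3B (4 of 9). It was -0.11 for U2AF (1 of 4) and -0.07 for U1- and U2-specific proteins (1 of 4). With the correction for gene properties the median over members was 0.04.

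The members nearest the threshold were Sf3a1, Hnrnpdl and Hnrnpc. Sf3a1 had 40.4 and 30.3 FPKM in H3.3K27M, against 50.8 and 53.6 FPKM in Cbfa2t2_KO, a log2 change of -0.57 ± 0.17 (limma, adjusted p = 0.0710). Hnrnpdl had 18.7 and 20.1 FPKM in H3.3K27M, against 14.2 and 12.7 FPKM in Cbfa2t2_KO, with 0.50 ± 0.15 (limma, adjusted p = 0.0759). Hnrnpc, which packages nascent RNA and binds U tracts, had 54.2 and 60.0 FPKM in H3.3K27M, against 41.4 and 41.1 FPKM in Cbfa2t2_KO, with 0.46 ± 0.14 (limma, adjusted p = 0.0793). In these 3 genes the groups did not overlap, and they were picked for their p after the values were seen. Hnrnpm, with 63.9 and 67.5 FPKM in H3.3K27M, against 65.6 and 52.8 FPKM in Cbfa2t2_KO, overlapped, with a log2 change of 0.16 ± 0.19 (limma, adjusted p = 0.619), so a difference between these lines was not detected.

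A few calls appeared under other settings. Without H3.3K27M replicate 1, Snrpe was higher (limma log2 change 1.11 ± 0.17, adjusted p = 0.0217) and Sf3a1 and Hnrnpul1 lower (-0.77 and -0.76, adjusted p = 0.0383 and 0.0447). With the correction for gene properties Sf3a1 was lower (-0.50 ± 0.12, adjusted p = 0.0389). The H3.3K27M replicates lay far apart at Snrpe, with 44.2 and 84.7 FPKM. Members higher in replicate 2 than in replicate 1 numbered 36 of 54 in H3.3K27M, 37 in H3.3WT and 21 in Cbfa2t2_KO. In H3.3K27M the median log2 difference between replicates was 0.13 over members and -0.05 over all genes.

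Other genes of the pathway were taken from 10 lists of 200 symbols, of which 192 were in the tables. In Cbfa2t2_KO against H3.3WT 13 of 185 tested were higher and 43 lower (30.3%, with a median log2 change of -0.26), and in H3.3K27M against H3.3WT 9 of 187 were higher and 38 lower (25.1%, -0.18), next to 34.6% and 26.2% of all genes and medians of -0.11 and -0.12. In H3.3K27M against Cbfa2t2_KO 5 of 185 were higher and 5 lower (5.41%, 0.04).

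Among partners of U2, Phf5a, itself a subunit of SF3B under another name stem, had 105 and 151 FPKM in H3.3K27M and 86.1 and 96.1 FPKM in Cbfa2t2_KO, against 231 and 235 FPKM in H3.3WT. It lay below both controls in all 4 libraries, with log2 changes of -0.88 ± 0.21 in H3.3K27M and -1.35 ± 0.13 in Cbfa2t2_KO (limma, adjusted p = 0.0171 and 0.000841). The call in Cbfa2t2_KO held under every setting, and that in H3.3K27M was lost without either H3.3WT library and under median-of-ratios scaling (adjusted p up to 0.104). In that list of 16, 5 fell and 0 rose in Cbfa2t2_KO, and 1 rose and 1 fell in H3.3K27M. Of 31 genes of the PRP19 complex, helicases and second-step factors, 1 rose and 10 fell in Cbfa2t2_KO and 0 rose and 9 fell in H3.3K27M. Cactin, which acts in late spliceosomes, had 24.4 and 22.0 FPKM in H3.3K27M and 31.7 and 32.7 FPKM in Cbfa2t2_KO, against 61.7 and 66.9 FPKM in H3.3WT (log2 changes -1.43 and -0.97; limma, adjusted p = 0.00157 and 0.00180).

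For U1, U5, U4/U6 and tri-snRNP proteins, 2 of 22 rose and 4 fell in Cbfa2t2_KO and 0 of 23 rose and 3 fell in H3.3K27M. Prpf8, the core of U5 around the catalytic centre, had 116 and 60.1 FPKM in H3.3K27M and 186 and 169 FPKM in Cbfa2t2_KO, against 168 and 157 FPKM in H3.3WT. The H3.3K27M libraries were below all others though unequal, with a log2 change of -1.08 ± 0.26 against Cbfa2t2_KO (limma, adjusted p = 0.0422) and -0.95 ± 0.28 against H3.3WT (0.0370). Both calls were lost when H3.3K27M replicate 2 or either H3.3WT library was dropped, and the call against Cbfa2t2_KO also without either Cbfa2t2_KO library. Quantile normalization ended both calls too, median-of-ratios scaling that against H3.3WT, and fitting without the filter or on the 4 libraries compared that against Cbfa2t2_KO (adjusted p up to 0.153 against H3.3WT and 0.197 against Cbfa2t2_KO over these alternatives). Of the minor spliceosome, which removes rare introns, 2 of 10 rose and 4 fell in Cbfa2t2_KO and 1 rose and 4 fell in H3.3K27M. Snrnp35, a protein of its U11 particle, had 8.84 and 6.44 FPKM in H3.3K27M and 12.2 and 14.1 FPKM in Cbfa2t2_KO, against 19.4 and 20.0 FPKM in H3.3WT (log2 changes -1.28 and -0.55; limma, adjusted p = 0.00372 and 0.0248). Snrnp25, of the same particle, was instead higher, with 43.8 and 36.8 FPKM in H3.3K27M and 44.6 and 52.1 FPKM in Cbfa2t2_KO, against 26.0 and 22.7 FPKM in H3.3WT (0.70 and 0.96; limma, adjusted p = 0.0211 and 0.00291).

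Of 18 factors that build snRNPs, 0 rose and 6 fell in Cbfa2t2_KO, and 1 rose and 5 fell in H3.3K27M. Phax, the export adaptor of new snRNAs, had 13.5 and 15.6 FPKM in H3.3K27M and 16.7 and 13.8 FPKM in Cbfa2t2_KO, against 35.5 and 44.8 FPKM in H3.3WT (log2 changes -1.40 ± 0.18 and -1.34 ± 0.17; limma, adjusted p = 0.00223 and 0.00152). Both calls held under every setting. Nonsense-mediated decay factors fell in 3 of 10 in each line and rose in 0, with Smg8, a partner of the kinase SMG1, at -1.42 in H3.3K27M and -0.88 in Cbfa2t2_KO (adjusted p = 0.00165 and 0.00270). Among SR-related proteins and the exon junction complex 4 of 24 rose and 6 fell in Cbfa2t2_KO and 3 rose and 5 fell in H3.3K27M; Tra2b, a co-activator that works with SR proteins, had 14.7 and 11.3 FPKM in Cbfa2t2_KO, against 26.2 and 28.7 FPKM in H3.3WT (-1.03 ± 0.17; limma, adjusted p = 0.00341). Of 10 SR protein kinases and import factors, 1 fell in H3.3K27M, the kinase Dyrk1a (-1.07 ± 0.23; limma, adjusted p = 0.0120, and up to 0.0721 without H3.3K27M replicate 2 or either H3.3WT library). LSM proteins fell in 1 of 10 in each line, the mRNA decay factor Lsm1 in Cbfa2t2_KO (-0.81) and Lsm10, of the histone-processing U7 particle, in H3.3K27M (-1.01, not called without H3.3WT replicate 2, limma adjusted p = 0.0663).

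Of the other alternative splicing regulators 4 of 34 rose and 4 fell in Cbfa2t2_KO and 3 of 35 rose and 6 fell in H3.3K27M. Nono, a paraspeckle protein, had 85.7 and 79.7 FPKM in H3.3K27M and 86.4 and 77.1 FPKM in Cbfa2t2_KO, against 35.2 and 37.6 FPKM in H3.3WT. The log2 changes were 1.16 ± 0.16 and 1.14 ± 0.14 (limma, adjusted p = 0.00264 and 0.00122), and both calls held under every setting. Rbm4, known for effects on neuronal and muscle exons, was lower, with 4.78 and 4.46 FPKM in H3.3K27M and 5.72 and 6.38 FPKM in Cbfa2t2_KO, against 12.2 and 14.5 FPKM in H3.3WT (-1.35 and -1.02; limma, adjusted p = 0.00261 and 0.00355).

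**Figure D4:**
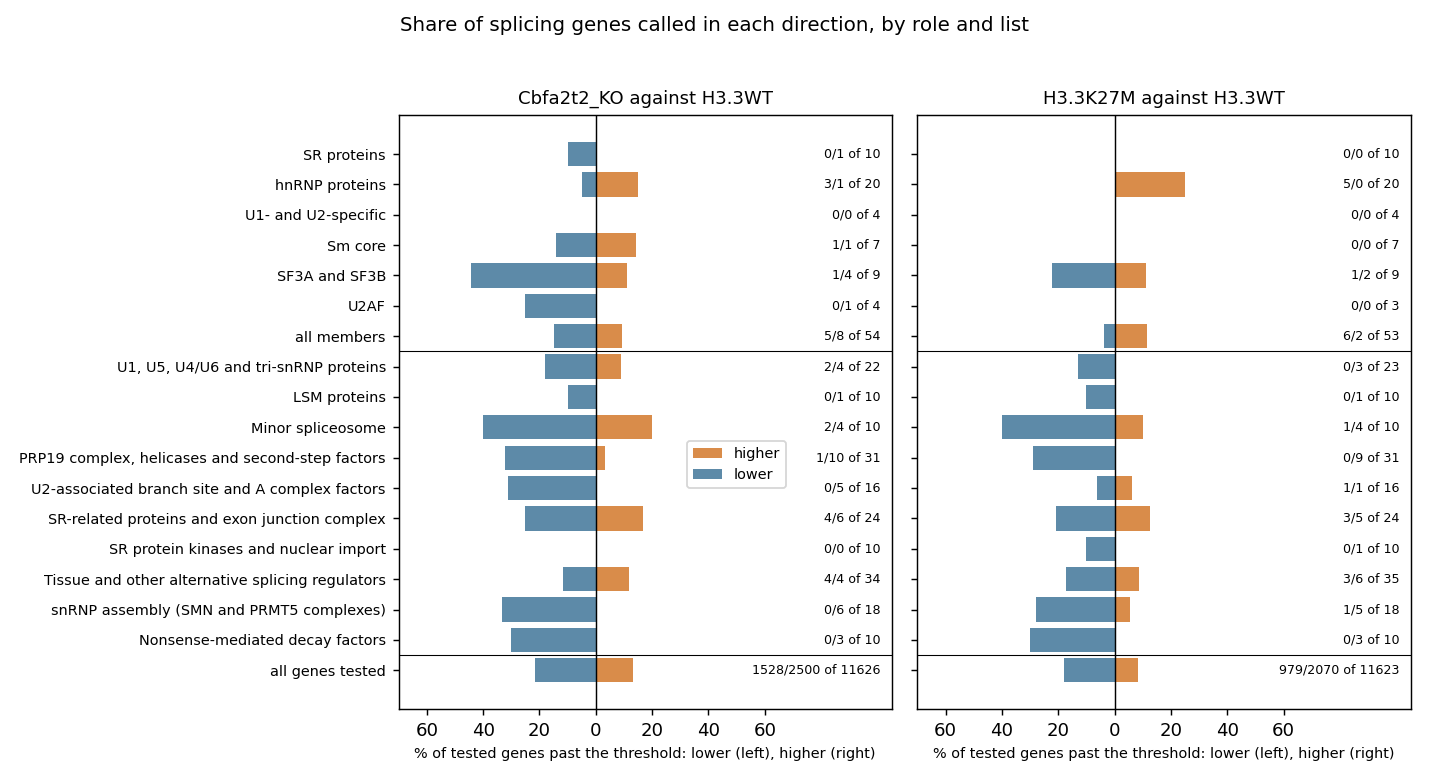
Percent of tested genes past the threshold (horizontal axis, lower to the left and higher to the right) for each role, each other splicing list and all genes, in Cbfa2t2_KO and in H3.3K27M against H3.3WT; the numbers at the right are genes higher/lower of those tested. The members as a whole (5/8 of 54 and 6/2 of 53) lie below the 34.6% and 26.2% of all genes. The hnRNP genes of H3.3K27M (5/0 of 20) have calls on the right side alone in the fit shown, which was not so under every setting.

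What the members share beyond their names was set beside all tested genes as a description. Their median GC content was 45.7%, against 50.6%, their median exon number 9, against 8, and their median transcript length 2988.5 bases, against 3024. The 5 genes higher in Cbfa2t2_KO had a median of 14 exons and the 8 lower 7.5; in H3.3K27M the 6 higher had 13.5 and the 2 lower 11. Sm core genes were short, with a median of 4 exons, and SF3A and SF3B genes long, with 16.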

How the data were processed

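Poly(A) RNA-seq of 6 libraries was deposited by the authors as FPKM per gene, in 1 table with Cbfa2t2_KO and H3.3WT (14431 genes) and 1 with H3.3K27M and H3.3WT (14318 genes). The build was GRCm38 and the tools named are HISAT2, Trim Galore, DESeq and StringTie, all without versions, per the submitters' processing notes; strand, annotation release and depth are not given in the sources used here. In each table every gene reached 0.500 FPKM in at least 1 library. The 14082 genes shared by the tables had the same H3.3WT values in each, which were used once. The columns taken as H3.3K27M carry only the letter M.

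The linear model of limma 3.58.1 (R 4.3.3) was fitted to log2(FPKM + 1) of all genes averaging 1 FPKM or more (eBayes with trend; Benjamini-Hochberg over all genes, threshold 0.05), in 4 libraries for each line against H3.3WT and in 6 for the lines against each other; fold changes of low genes are understated on this scale. An exact permutation test of 2 against 2 libraries cannot reach 0.05. Coordinates, exon numbers, overlaps and GC content come from GENCODE vM21 (GRCm38), which held all 54 members; promoters come from RefSeq GRCm38.p6. Python 3.11.15 and matplotlib 3.10.9 made the figures.

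The members, lists, named-gene rule and alternatives were chosen with earlier results of these data known. The rule named up to 4 called members of each role by size of change, the highest and lowest of each role, and up to 3 called genes of each other list. Sf3b2 and Hnrnpdl, and members named without a call, were added after their values were seen. Of the 60 calls named from the other lists only a part is described above, a choice made with the values known. Those left out include Elavl1 and Pnisr in Cbfa2t2_KO (log2 changes -1.23 and -1.20) and Sap18 in H3.3K27M (1.05). Most of the named calls between the 2 lines were left out too. Alternatives were a pseudocount of 0.1, no filter, a mean of at least 5 FPKM, median-of-ratios scaling, quantile normalization, no trend, another set of libraries in the fit, removal of trends on GC content, transcript length and exon number, and leaving out each library. Protein sequence features were not analysed here.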

Additional observations from a re-analysis of the deposited data

How the results depend on the processing

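No paired analysis was possible because the labels give the libraries no replicate numbers that are shared between lines. Of the 21 calls of members, 2 held under every alternative (Hnrnpm in each line), 8 held under all 8 processing settings and 0 changed sign; over single members and alternatives, 172 of 252 refits kept the call, 55 were lost by leaving out a library and 25 by another setting. In Cbfa2t2_KO against H3.3WT (5 higher, 8 lower), leaving out a library gave 1 to 3 higher and 1 to 4 lower, a fit without trend 3 higher and median-of-ratios scaling 3 lower. In H3.3K27M against H3.3WT (6 higher, 2 lower), leaving out a library gave 2 to 4 higher and 0 to 2 lower; 1 was lower without the filter, 1 under median-of-ratios scaling, 1 without trend, 4 under quantile normalization and 9 with the correction for GC content, transcript length and exon number. In H3.3K27M against Cbfa2t2_KO (0 and 0), leaving out a library gave 0 to 1 higher and 0 to 2 lower, and the correction for gene properties 1 lower. Among calls that held, that correction moved the log2 change to -1.09 for Sf3a3 and -0.77 for U2af1 in Cbfa2t2_KO and to 0.64 for Hnrnpa1 in H3.3K27M. The cause of these shifts was not tested; a fit that leaves out a library assumes that the lone library varies like the rest. Of 60 calls that the rule named from the other lists, described above or not, 24 held under every alternative. Depth is unknown, so how far counting error limits low genes such as Hnrnpa3 was not tested.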
